A study of Mus musculus with 6 samples.

Results

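Cardiac sarcomere and Z-disc genes were described in hypoxic (HO) primary neonatal mouse cardiomyocytes (NMCMs) that had been given vehicle or β-sitosterol (β-SITO), a plant sterol. The 36 genes were a fixed list of thick filament, thin filament, M-band and Z-disc components and were found by gene symbol among the 57010 genes of the deposited count table. All 36 were in the table, and all 36 were among the 14799 genes with enough counts to be tested. The series compared 3 RNA-seq libraries of the HO + Vehicle group (V1 to V3) with 3 HO + β-SITO libraries (T4 to T6) and asked which genes β-SITO changed under hypoxia. The cells came from the hearts of C57BL/6 mice aged 1 to 3 days and were parted from cardiac fibroblasts only by letting the fibroblasts stick to a dish first. Both groups were hypoxic, and no normoxic library was used here. The dose of β-SITO and the hours under hypoxia are not stated for these libraries, and no source says that the 3 libraries of a group came from separate cultures, so the p-values measure only the spread between these libraries.

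The sarcomere is the contractile unit of striated muscle. Thick filaments of myosin pull on thin filaments of actin, which carry the troponin and tropomyosin switch that responds to calcium, and titin spans from the M-band, where thick filaments are joined, to the Z-disc, where thin filaments are anchored. Several of these proteins have a form used early in heart development or in the atria and another used in the mature ventricle. In the mouse, Myh7, Tnni1 and the atrial light chains Myl4 and Myl7 are used in the developing ventricle, and Myh6, Tnni3, Myl3 and Myl2 prevail in the ventricle after birth.

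The change was uneven across the 36 genes. Levels are in CPM, a gene's counts relative to the size of its library. Library sizes were adjusted by TMM, which assumes that most genes are level between libraries. Each gene was tested between the groups by the quasi-likelihood method of edgeR over all 14799 genes. A gene was called at an adjusted p (Benjamini-Hochberg) under 0.05 and more than 2-fold, the threshold of the study. Of the 36 genes, 5 were higher with β-SITO (Myl7, Myl4, Myh7, Tnnt1 and Myom3), against 12.8% of all genes tested, and 1 was lower (Nebl), against 10.1% of all genes tested. Without the fold threshold 9 were higher (background 33.0%), 4 were lower (background 33.8%) and 23 did not pass. No HO + β-SITO library overlapped the HO + Vehicle range for 12 of the 36, whereas this held for 70.5% of all genes tested. The median log2 fold change was 0.03 over the 36 genes and -0.01 over all genes, with a range of -1.12 to 2.39 over the 36. Beside the background, the 36 genes therefore held fewer separated genes than the table as a whole and a share of genes called higher close to it.

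**Figure D1:**
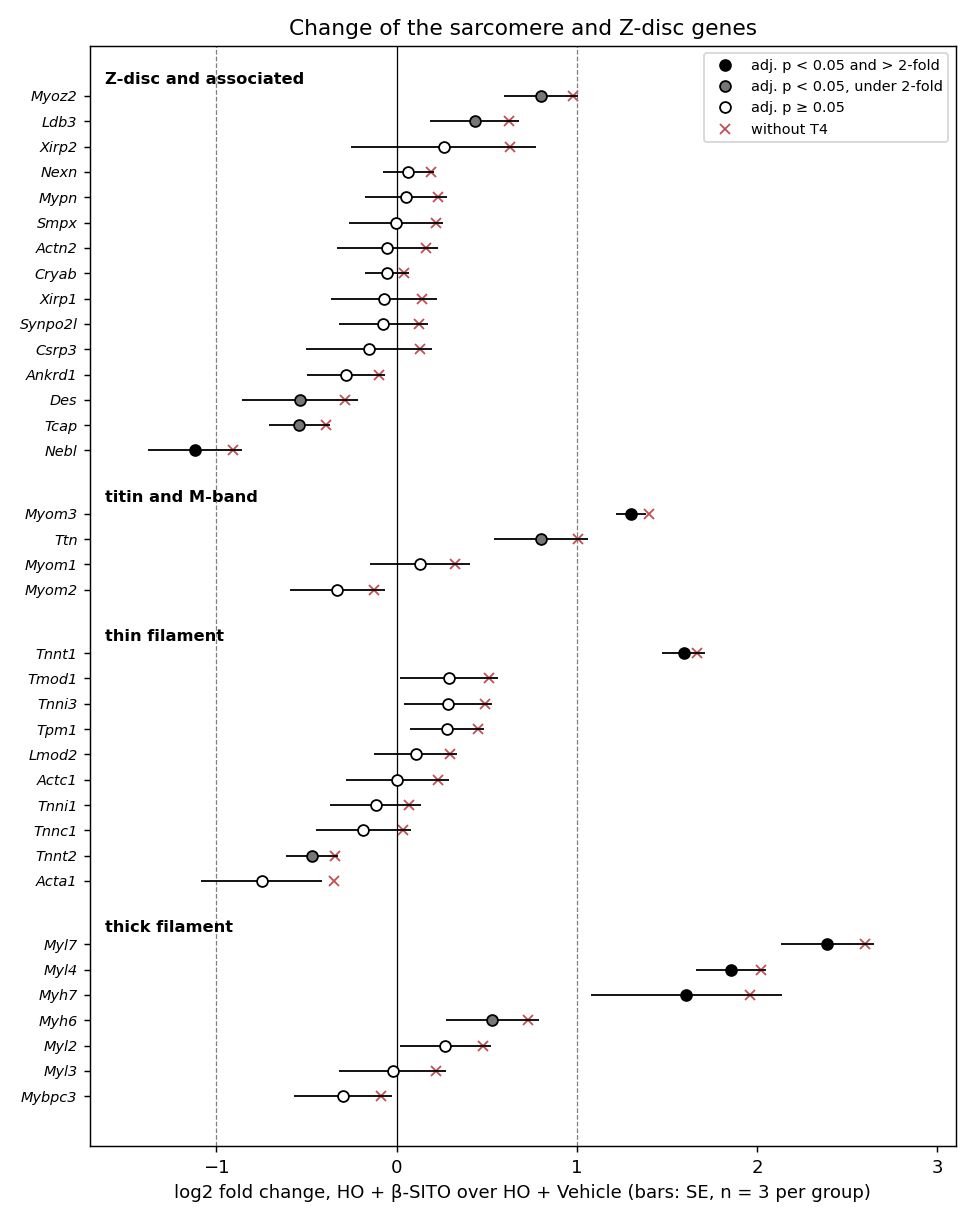
Log2 fold change of the 36 genes, HO + β-SITO over HO + Vehicle, by part of the sarcomere. Points are edgeR estimates, bars the standard error from the spread of log2 CPM (n = 3 per group), fill the call, crosses the estimate without library T4 and dashed lines a 2-fold change. Myl7 lies farthest to the right at 2.39 and Nebl farthest to the left at -1.12, and every cross lies to the right of its point.

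One library stood apart in these genes. T4 was the lowest of the 3 HO + β-SITO libraries in 36 of the 36 genes, whereas it was the lowest in 36.5% of all genes tested. Its CPM divided by the mean of T5 and T6 had a median of 0.606 over the 36 genes, with a range of 0.290 to 0.848, and was under 0.8 in 33 of them (91.7%). Over the 14758 genes above 0 in T5 or T6 the median was 0.9999, and 10.5% were under 0.8. The highest over the lowest HO + β-SITO library had a median of 1.67 over the 36 genes and 1.13 over all genes, while in the HO + Vehicle group it was 1.21 and 1.16. Of 28 further sarcomere genes tested, 13 were under 0.8 (median 0.842, range 0.430 to 1.19), and of 13 regulators of sarcomere genes 5 were (median 0.883), so the low values in T4 did not extend to all genes of the sarcomere. T4 was also low in 20 of 20 cardiomyocyte markers outside the sarcomere (ratio under 0.8, median 0.581) and in 6 of 11 smooth muscle and mural markers (median 0.746). It was under 0.8 in 0 of 12 fibroblast markers (median 1.02), 0 of 11 endothelial markers (median 0.972) and 0 of 12 macrophage markers (median 1.196). T4 was above the mean of T5 and T6 in every macrophage marker (range 1.09 to 1.30). The 6 epicardial and mesothelial markers had a median of 1.27 (range 0.808 to 1.35). In bulk RNA, fewer cardiomyocytes and less RNA of the 36 genes per cardiomyocyte cannot be told apart. Values are therefore given with and without T4. T5 and T6 were the most alike pair within a group, with a chi-square of their counts per degree of freedom of 1.96. It was 4.71 to 7.51 for pairs of HO + Vehicle libraries and 8.57 and 9.06 for T4 with T5 and T6. Without T4 the HO + β-SITO group is only T5 and T6, and p-values without T4 rest in part on their narrow spread.

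**Figure D2:**
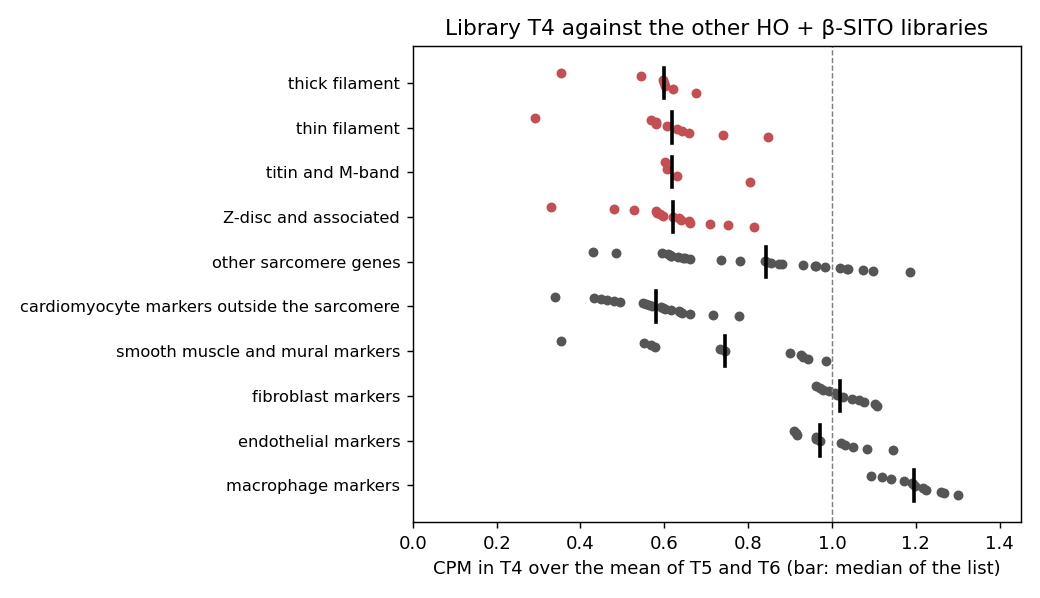
CPM of each gene in T4 divided by the mean of T5 and T6, by gene list, with the median of each list as a bar and 1 as a dashed line. The 36 genes (red, by part of the sarcomere) and the cardiomyocyte markers outside the sarcomere lie left of 1, with medians between 0.581 and 0.620. The other sarcomere genes spread from 0.430 to 1.19 with a median of 0.842. The fibroblast and endothelial markers lie around 1, and the macrophage markers lie to the right of it.

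Total counts were 16694734 to 17082129 for V1 to V3 and 16962152 to 18460522 for T4 to T6. The 36 genes together took 1.10%, 0.978% and 0.969% of all counts in V1, V2 and V3, and 0.885%, 1.40% and 1.42% in T4, T5 and T6. T4 was thus the lowest and T5 and T6 the highest of the 6 libraries, so the groups overlapped (1.02% ± 0.0720 and 1.24% ± 0.305, SD, n = 3; two-sided exact permutation test, p = 0.4, where 3 libraries against 3 cannot go below 0.1). The difference of 0.222 percentage points kept its sign with each library left out, but its size varied, at 0.398 without T4, 0.139 without T5 and 0.128 without T6. The 20 cardiomyocyte markers outside the sarcomere summed to 0.322% to 0.399% of counts in V1 to V3 and 0.408% to 0.682% in T4 to T6, with no overlap (exact p = 0.1). In CPM after TMM the groups did overlap. The sums were 4215, 3373 and 3730 in V1, V2 and V3 and 3874, 6397 and 6484 in T4, T5 and T6, so T4 lay within the HO + Vehicle range. Atp2a2 alone held 2030 of the 3874 CPM in T4. Markers of other cells took a larger part of the same libraries: 12 fibroblast markers, led by Col3a1, Col1a1 and Col1a2, summed to 2.95% to 3.05% of counts in V1 to V3 and 4.90% to 5.01% in T4 to T6, so the libraries labelled as cardiomyocytes held more counts of those 12 genes than of the 36 sarcomere genes. Sums of 11 endothelial markers (0.0667% to 0.0776% and 0.105% to 0.110%), 12 macrophage markers (0.131% to 0.145% and 0.302% to 0.371%) and 11 smooth muscle and mural markers (0.111% to 0.121% and 0.228% to 0.257%) were also higher in every HO + β-SITO library. Of 14 skeletal muscle markers, 4 had 0 counts in all 6 libraries (Myod1, Myh4, Tnnc2 and Mybpc1), and the list summed to 0.000575% to 0.000783% of counts in V1 to V3 and 0.001002% to 0.00118% in T4 to T6. Myh1 and Myh2, fast skeletal myosin heavy chains, had 0 counts in V1 to V3, while T4, T5 and T6 had 13, 11 and 9 counts of Myh1 and 5, 6 and 1 of Myh2. The part of these cells in the changes of the 36 genes was not tested. The sample labels give T4 to T6 library names with an added letter that V1 to V3 do not have, and whether this marks a separate preparation, which could then not be told apart from β-SITO, is not stated.

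In the thick filament, the atrial light chains and the slow heavy chain rose by more than 2-fold, and the main ventricular genes did not. Of 7 genes, 3 were called higher and none lower, and the median log2 fold change was 0.53. Myl7, the atrial regulatory light chain of myosin (chromosome 11, 5846637 to 5848782, GRCm39), was measured at 23.3, 27.4 and 24.1 CPM in V1, V2 and V3 and at 90.2, 150.0 and 152 CPM in T4, T5 and T6. T4 was well below T5 and T6, yet every HO + β-SITO library was far above every HO + Vehicle library. The change was 5.24-fold (log2 2.39 ± 0.26, SE of the difference in log2 CPM, n = 3 per group, edgeR adjusted p = 2.63e-09), the largest rise among the 36 genes, and 6.06-fold without T4. Myl4, the atrial essential light chain (chromosome 11, 104441489 to 104486579), stood at 23.6, 22.8 and 21.01 CPM in the HO + Vehicle libraries and at 61.6, 90.6 and 91.9 CPM in T4, T5 and T6. The groups again did not overlap, with a 3.62-fold rise (log2 1.86 ± 0.19, adjusted p = 3.91e-09) and a 4.06-fold rise without T4.

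Myh7, the slow β-myosin heavy chain, read 17.1, 10.9 and 12.3 CPM in V1, V2 and V3 and 18.4, 53.96 and 50.6 CPM in T4, T5 and T6. T4 lay only just above V1, while T5 and T6 were several times higher, so the spread within the HO + β-SITO group was wide. Its rise was 3.05-fold (log2 1.61 ± 0.53, adjusted p = 1.87e-04), and 3.896-fold without T4. Myh6, the α-myosin heavy chain that drives the adult mouse heart, had 2274, 1726 and 1917 CPM in the HO + Vehicle libraries and 2023, 3268 and 3256 CPM in T4, T5 and T6. T4 lay within the HO + Vehicle range and T5 and T6 above it. Myh6 passed the test below 2-fold (1.44-fold, log2 0.53 ± 0.26, adjusted p = 0.00426), and its change was 1.65-fold without T4. Myh6 (chromosome 14, 55179378 to 55204384) and Myh7 (55208141 to 55232083, GRCm39, both on the minus strand) are closely similar neighbours, and how reads shared between them were counted is not stated, so their separate counts carry that uncertainty. The antisense transcript Mhrt overlaps Myh7 and held 24.0 counts on average, against 489 for Myh7.

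The ventricular light chains and the myosin-binding protein did not pass the test over all 6 libraries. Myl2, the ventricular regulatory light chain, had 649.5, 673 and 589.7 CPM in the HO + Vehicle libraries and 533, 858 and 916 CPM in T4, T5 and T6 (log2 0.27 ± 0.25, adjusted p = 0.1005). Myl3, the ventricular essential light chain, had 543, 525 and 487 CPM against 327, 607 and 597 CPM (log2 -0.02 ± 0.30, adjusted p = 0.908). In both, T4 was below every HO + Vehicle library and T5 and T6 were above every one. Mybpc3, which braces the myosin filament and tunes cross-bridges, had 423, 326 and 335 CPM against 203, 345 and 334 CPM (log2 -0.30 ± 0.27, adjusted p = 0.0935), with T4 far below the rest. Without T4, Myl2 and Myl3 passed below 2-fold at log2 0.48 (adjusted p = 8.21e-07) and 0.22 (adjusted p = 0.00518), and Mybpc3 was at -0.09 (adjusted p = 0.364).

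**Figure D3:**
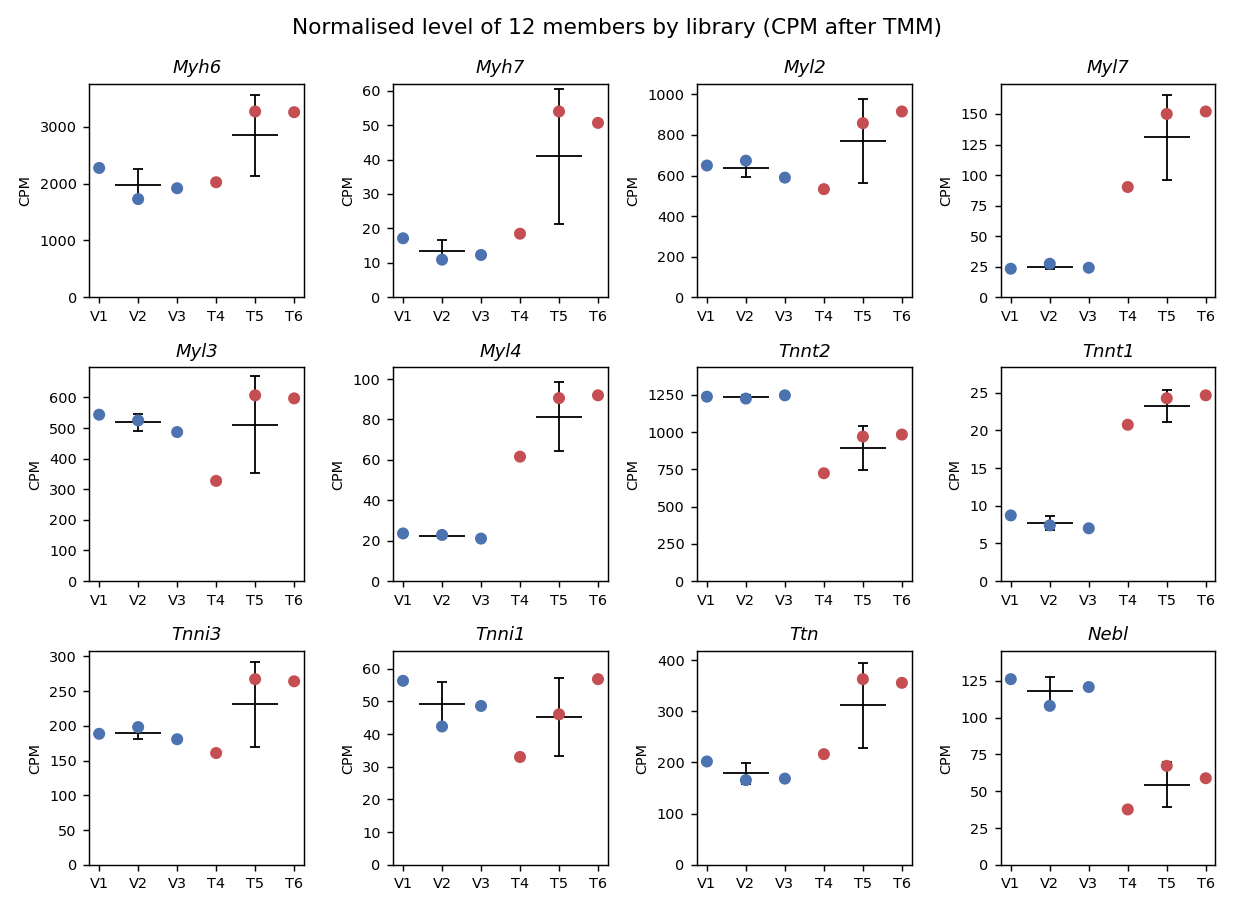
CPM after TMM normalization of 12 of the genes in each library, with HO + Vehicle in blue, HO + β-SITO in red and black bars for mean ± SD (n = 3). T4 is the lowest red point in each panel. Myl7, Myl4, Tnnt1 and Nebl keep a gap between the groups, and in Myl2, Myl3 and Tnni3 T4 lies below all blue points and T5 and T6 above them.

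The windows upstream of Myl7, Myl4 and Tnnt1, 3 of the 5 genes called higher, are shown with that of Myl3, the ventricular counterpart of Myl4 that did not pass the test. Each is the 250 bases before the annotated start (RefSeq, build GRCm38.p6; the counts use GRCm39), 5′ to 3′ on the gene's strand, and capitals mark a CArG box, the sequence that serum response factor binds, or an MCAT motif (CATTCC or its reverse complement GGAATG), which TEAD factors bind. Myl7 is at chr11:5898783-5899032 (minus strand), Myl4 at chr11:104550413-104550662 (plus), Tnnt1 at chr7:4515976-4516225 (minus) and Myl3 at chr9:110763428-110763677 (plus).
Myl7: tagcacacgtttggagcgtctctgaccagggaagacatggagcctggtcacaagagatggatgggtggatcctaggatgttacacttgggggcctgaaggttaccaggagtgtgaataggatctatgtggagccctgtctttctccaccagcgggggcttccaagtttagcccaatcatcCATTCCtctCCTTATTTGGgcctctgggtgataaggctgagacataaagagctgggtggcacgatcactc
Myl4: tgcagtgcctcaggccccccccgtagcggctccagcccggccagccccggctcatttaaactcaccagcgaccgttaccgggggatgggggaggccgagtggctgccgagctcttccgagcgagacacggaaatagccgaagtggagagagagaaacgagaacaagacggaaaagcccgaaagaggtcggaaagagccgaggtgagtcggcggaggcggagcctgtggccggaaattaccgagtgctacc
Tnnt1: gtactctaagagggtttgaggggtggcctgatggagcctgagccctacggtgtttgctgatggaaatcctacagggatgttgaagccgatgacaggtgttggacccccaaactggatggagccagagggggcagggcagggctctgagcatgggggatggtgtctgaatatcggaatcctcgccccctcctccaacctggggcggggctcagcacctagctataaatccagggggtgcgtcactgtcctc
Myl3: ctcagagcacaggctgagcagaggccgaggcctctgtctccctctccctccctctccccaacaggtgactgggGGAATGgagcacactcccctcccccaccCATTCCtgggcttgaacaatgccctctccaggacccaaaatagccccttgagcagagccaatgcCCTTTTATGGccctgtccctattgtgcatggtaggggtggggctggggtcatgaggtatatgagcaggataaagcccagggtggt
The Myl7 window held an MCAT match at -70 to -65 and a CArG box at -61 to -52, counted back from the start, and the Myl3 window held MCAT matches at -177 to -172 and -149 to -144 and a CArG box at -85 to -76. Neither motif, and no MEF2 site, was found in the windows of Myl4 and Tnnt1, so genes that rose were found with and without them. Windows existed for 31 of the 36 genes, 41 in all since some genes have several starts. A CArG box was in 19.5% of the 41 windows and in 1.47% of all 32851 windows of this length, an MCAT match in 29.3% and 12.6%, and a MEF2 site (the sequence bound by MEF2 factors) in 17.1% and 2.92%. By gene, 7 of the 31 had a CArG box, 12 an MCAT match and 6 a MEF2 site. Windows of a gene can overlap, and the CArG box in both Ldb3 windows is the same site. Both strands were searched, and no window of these genes had 2 of the motifs sharing bases. These are matches of letters and describe neither occupied sites nor the change in expression.

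In the thin filament, Tnnt1 rose, Tnnt2 was lower and the other 8 genes did not pass the test. The median log2 fold change of the 10 genes was 0.06. Tnnt1, the slow skeletal troponin T (chromosome 7, 4507569 to 4519381), was at 8.72, 7.397 and 7.004 CPM in the HO + Vehicle libraries and at 20.8, 24.3 and 24.7 CPM in T4, T5 and T6. All HO + β-SITO libraries were above all HO + Vehicle libraries, and T4 was close to the other HO + β-SITO libraries here, at 0.848 of their mean. The rise was 3.01-fold (log2 1.59 ± 0.12, adjusted p = 4.03e-09), and 3.18-fold without T4. Tnnt2, the cardiac troponin T, had 1238, 1225 and 1247 CPM in V1, V2 and V3 and 724, 969.8 and 983 CPM in T4, T5 and T6. Every HO + β-SITO library was below every HO + Vehicle library, and the HO + Vehicle libraries were almost level. The decrease passed the test at 0.722 times the HO + Vehicle level (log2 -0.47 ± 0.14, adjusted p = 3.47e-04), and was at log2 -0.34 without T4 (adjusted p = 2.88e-05).

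Both troponin I genes overlapped between the groups. Tnni3, the adult inhibitory subunit, had 189, 198 and 181 CPM against 161, 267 and 264 CPM (log2 0.29 ± 0.24, adjusted p = 0.0746). Tnni1, the subunit of the fetal heart and of slow skeletal muscle, had 56.3, 42.3 and 48.6 CPM against 32.99, 46.04 and 56.8 CPM (log2 -0.12 ± 0.25, adjusted p = 0.501). Tnni1, also a gene of the developing heart, did not pass without T4 either (log2 0.07, adjusted p = 0.551), while Tnni3 passed below 2-fold without T4 (log2 0.49, adjusted p = 3.98e-07).

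Tnnc1, the calcium-binding troponin C, had 193, 203 and 192 CPM against 116, 195 and 206 CPM, so that T4 alone was low (log2 -0.19 ± 0.26, adjusted p = 0.269). Tpm1, the main cardiac tropomyosin and also a gene of smooth muscle and fibroblasts, had 1547, 1429.7 and 1390.2 CPM against 1314, 1939.9 and 2045 CPM and just missed the threshold (log2 0.28 ± 0.21, adjusted p = 0.0507). Without T4 it passed below 2-fold (log2 0.45, adjusted p = 8.13e-07). Actc1, the cardiac α-actin, read 1626, 1409 and 1346 CPM in the HO + Vehicle libraries and 973, 1689 and 1734 CPM in T4, T5 and T6. Its group means were 1460.5 ± 147 and 1465 ± 427 CPM (SD, n = 3), so the level means hid a low T4 and higher T5 and T6, and without T4 it passed below 2-fold (log2 0.23, adjusted p = 0.00597). Acta1, the skeletal α-actin that the stressed heart can also use, held only 3 to 15 counts per library, too few to resolve its difference of log2 -0.75 ± 0.34 (adjusted p = 0.206). Lmod2, which lengthens thin filaments, and Tmod1, which caps their pointed ends, had log2 differences of 0.11 and 0.29 (adjusted p = 0.502 and 0.115), and both passed below 2-fold without T4 (log2 0.30 and 0.51). Counts of Tnnc1, Tmod1 and the M-band gene Myom1 may include reads of the overlapping antisense genes Nisch, Tstd2 and Myl12a, since use of strand in the counting is not stated.

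Among titin and the M-band genes, Ttn and Myom3 were higher and Myom1 and Myom2 did not pass the test. Ttn, the giant spring that links the M-band to the Z-disc, read 202, 165 and 168 CPM in V1, V2 and V3 and 216, 363 and 355 CPM in T4, T5 and T6. T4 lay just above the highest HO + Vehicle library and T5 and T6 well above it. The rise was 1.74-fold (log2 0.80 ± 0.26, adjusted p = 1.63e-04), under the 2-fold threshold, and reached 2.01-fold without T4 (adjusted p = 9.95e-12). Myom3, a myomesin known from skeletal muscle, was at 0.379, 0.313 and 0.3099 CPM against 0.719, 0.956 and 0.833 CPM, a 2.46-fold rise (log2 1.30 ± 0.0831, adjusted p = 0.00623) that rested on 5 to 17 counts per library. Its SE is on the scale of log2(CPM + 0.5), which narrows the spread at so low a level. Its groups did not overlap, and without T4 it was 2.64-fold higher. Myom1, the general myomesin, had 161, 109 and 137 CPM against 106, 162 and 177 CPM (log2 0.13, adjusted p = 0.468). Myom2, the M-protein of adult fast and cardiac fibres, had 180.3, 139.5 and 159.8 CPM against 88.8, 147 and 146 CPM (log2 -0.33 ± 0.26, adjusted p = 0.0554). T4 was the lowest of all 6 libraries in both, and without it Myom1 passed below 2-fold (log2 0.32, adjusted p = 0.00595) and Myom2 did not pass (adjusted p = 0.183).

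At the Z-disc and its neighbours, 1 of 15 genes was called, Nebl, which was lower, and the median log2 fold change was -0.05. Nebl, the nebulette of the Z-disc end of thin filaments (chromosome 2, 17348720 to 17736275), stood at 126, 108 and 121 CPM in V1, V2 and V3 and at 37.7, 67.3 and 58.9 CPM in T4, T5 and T6. Every HO + β-SITO library was well below every HO + Vehicle library. The level was 0.461 times that of the HO + Vehicle group (log2 -1.12 ± 0.26, adjusted p = 4.79e-06), and 0.533 times without T4 (log2 -0.91, adjusted p = 3.37e-10), which is within 2-fold. With scaling by library size alone or by the upper quartile, which moved the median of all genes by 0.15 and 0.14 (log2), Nebl was at -0.97 and -0.98, also within 2-fold. The same gene also encodes a shorter LIM-domain product used outside muscle, and counts per gene do not separate the products.

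Tcap, the titin cap, and Des, the intermediate filament desmin that ties Z-discs together, were lower below 2-fold. Tcap had 70.6, 70.1 and 66.4 CPM against 37.4, 54.3 and 51.01 CPM (log2 -0.54 ± 0.17, adjusted p = 2.91e-04), and Des had 188, 159.9 and 152 CPM against 71.996, 134 and 139 CPM (log2 -0.54 ± 0.32, adjusted p = 0.0114). Neither overlapped between the groups, and both still passed without T4 (log2 -0.39 and -0.29, adjusted p = 6.18e-05 and 0.00252). Des, unlike Tcap, lost its pass with DESeq2 (log2 -0.53, adjusted p = 0.113), with scaling by library size alone or by the upper quartile (adjusted p = 0.0531 and 0.0516) and without V1 (adjusted p = 0.0758). Ankrd1, a stretch-responsive ankyrin repeat protein that other cells express too, had 664, 615 and 635 CPM against 381, 601 and 591 CPM. Its groups did not overlap, but T5 and T6 lay only just under the HO + Vehicle range and the test was not passed (log2 -0.28 ± 0.22, adjusted p = 0.0553, and 0.188 without T4).

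Myoz2, the cardiac calsarcin that holds calcineurin at the Z-disc, was higher at 66.3, 67.6 and 60.8 CPM against 84.2, 123 and 133 CPM, with no overlap. The rise was 1.74-fold (log2 0.80 ± 0.21, adjusted p = 3.31e-05) and 1.97-fold without T4. Ldb3, the PDZ-LIM protein Cypher that binds α-actinin, had 139.7, 109 and 112 CPM against 118, 192 and 179 CPM and passed below 2-fold (log2 0.43 ± 0.25, adjusted p = 0.0122). Its groups overlapped through T4, and without T4 it was at log2 0.62 (adjusted p = 3.81e-07). It did not pass with DESeq2 (log2 0.44, adjusted p = 0.0845), without V2 (adjusted p = 0.0616) or without V3 (adjusted p = 0.0636).

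Actn2, the α-actinin that crosslinks thin filaments, had 382, 301 and 314 CPM against 217, 376 and 369 CPM (log2 -0.05, adjusted p = 0.7796). Csrp3, the muscle LIM protein, had 38.8, 38.2 and 37.6 CPM against 19.99, 40.5 and 42.9 CPM (log2 -0.15, adjusted p = 0.488). T4 was the lowest of the 6 libraries in both, while T5 and T6 lay within the HO + Vehicle range for Actn2 and above it for Csrp3. The remaining genes that did not pass were Cryab (a small heat shock protein that protects desmin), Mypn (myopalladin), Nexn (nexilin), Smpx, Synpo2l and the repeat proteins Xirp1 and Xirp2. Their log2 fold changes were between -0.07 (Synpo2l) and 0.26 (Xirp2), their adjusted p between 0.471 and 0.996, and their groups overlapped. Without T4, Nexn, Smpx and Xirp2 passed below 2-fold (log2 0.19, 0.22 and 0.63). Xirp1 lies within the span of the macrophage gene Cx3cr1 on the same strand, so its counts may hold reads of that gene.

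Over the 36 genes, leaving out T4 gave 6 higher and 0 lower calls in place of 5 and 1, since Ttn passed 2-fold and Nebl no longer did. Without the fold threshold 20 were higher and 4 lower, against 9 and 4 with T4, and the median log2 fold change was 0.22 in place of 0.03. Over all genes the same step gave 1979 higher and 1565 lower calls of 15033, against 1888 and 1492 of 14799, and a median of -0.00139. Without the fold threshold, 4919 of all genes were higher and 4918 lower when T4 was left out, against 4885 and 5007 with T4. The count of smaller rises among these genes therefore depended on whether T4 was kept, and without T4 it came from the closely similar T5 and T6. The calls of Myl7, Myl4, Myh7, Tnnt1 and Myom3 did not depend on T4. In a test against a 2-fold change itself (edgeR glmTreat), Myl7, Myl4, Myh7 and Tnnt1 passed, and Myom3 (adjusted p = 0.417) and Nebl (adjusted p = 0.390) did not.

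The forms of each pair were then compared within a library, where a difference in total sarcomere RNA cancels. Counts were divided by the length of the longest coding transcript, and the share of the developmental, atrial or slow skeletal form was taken. For the regulatory light chains, Myl7 made up 5.13%, 5.78% and 5.803% of Myl7 plus Myl2 in the HO + Vehicle libraries and 20.3%, 20.8% and 20.01% in T4, T5 and T6. T4 no longer stood apart, and the means were 5.57% ± 0.381 and 20.4% ± 0.424 (SD, n = 3; two-sided exact permutation test, p = 0.1, the smallest that 3 libraries against 3 allow). For the essential light chains, Myl4 made up 4.13%, 4.14% and 4.11% of Myl4 plus Myl3 against 15.8%, 12.9% and 13.3%, with T4 now the highest library. The means were 4.13% ± 0.0147 and 13.98% ± 1.54 (exact p = 0.1).

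Tnnt1 made up 0.792%, 0.6797% and 0.633% of Tnnt1 plus Tnnt2 in the HO + Vehicle libraries and 3.15%, 2.76% and 2.76% in T4, T5 and T6 (exact p = 0.1, no overlap). Myh7 made up 0.733%, 0.616% and 0.624% of Myh7 plus Myh6 against 0.887%, 1.59% and 1.503%. Those groups did not overlap either (exact p = 0.1), but T4 stayed between V1 and the other HO + β-SITO libraries. Myh6 therefore remained the heavy chain in use, at about 152 times the length-scaled level of Myh7 in the HO + Vehicle group and 79.7 times in the HO + β-SITO group. Tnni1 went the other way in its mean, at 17.1% ± 2.37 of Tnni1 plus Tnni3 against 13.5% ± 1.33, with overlapping groups (exact p = 0.2). Acta1 was 0.0475% ± 0.0127 and 0.0263% ± 0.0169 of Acta1 plus Actc1, also with overlap (exact p = 0.2). Of the forms of the developing ventricle named above, the shares of Myl7, Myl4 and Myh7 were higher in every HO + β-SITO library, and that of Tnni1 was not. The share of the slow skeletal Tnnt1 was also higher in every HO + β-SITO library. Acta1, at 3 to 15 counts per library, was too low to resolve its share.

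**Figure D4:**
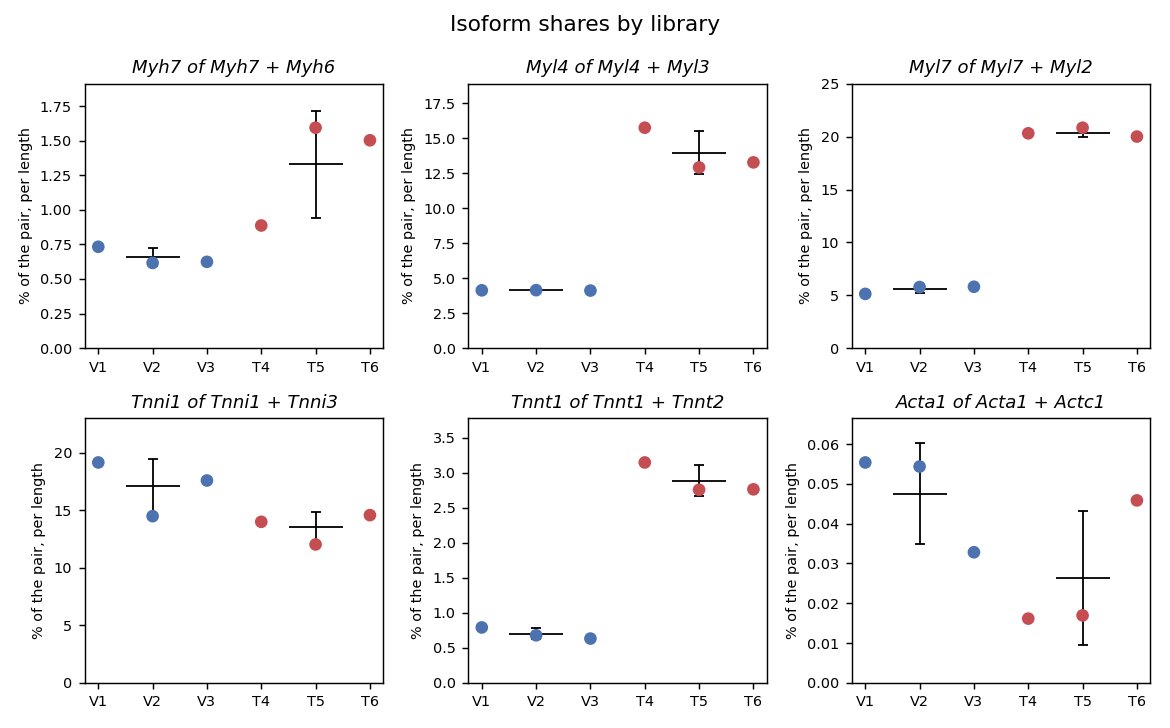
Share of the developmental, atrial or slow skeletal form in each of 6 isoform pairs, in percent of the pair's length-scaled counts, by library (blue HO + Vehicle, red HO + β-SITO, black bars mean ± SD, n = 3). The Myl7, Myl4, Tnnt1 and Myh7 shares are higher in each red library than in each blue one, and the Tnni1 and Acta1 shares overlap.

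The order of the genes by length-scaled level (counts per kilobase, scaled to the same sum in every library) was led in the HO + Vehicle group by Tnnt2 (2381 ± 67.4, SD, n = 3) and Actc1 (2293 ± 267), of which Actc1 was the higher in V1 and Tnnt2 in V2 and V3, followed by Myl2 (1656 ± 103), Myl3 (1278 ± 82.0) and Tpm1 (1164 ± 84.1). In the HO + β-SITO group Actc1 (2646 ± 773), Myl2 (2301 ± 619) and Tnnt2 (1977 ± 326) led, with spreads widened by a low T4 in each. Within a library Actc1 was above both others, at 1754, 3054 and 3129.8 in T4, T5 and T6, against 1592, 2571 and 2739 for Myl2 and 1602, 2153 and 2178 for Tnnt2. Myl7 went from rank 19 to rank 10 of the 36 and Myl4 from rank 24 to rank 14. Myom3 was the lowest in both groups, and Ttn, whose transcript is by far the longest, ranked 33 in both.

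To set each gene against the others of the list, a scaling to the summed counts of the 36 genes was added after the data were seen. On this scale Myl7 (log2 2.24, adjusted p = 1.85e-13), Myl4 (1.73, 1.06e-08), Tnnt1 (1.499, 1.04e-06) and Myh7 (1.42, 3.54e-06) were called higher by edgeR and Nebl lower (-1.26, 4.84e-05). Myoz2 passed below 2-fold upward (0.67, adjusted p = 0.0488), Tcap and Des downward (-0.66 and -0.69, adjusted p = 0.0496 and 0.0425), and Myom3 (1.19, adjusted p = 0.0559) did not. Of the genes that had passed below 2-fold, Ttn (0.66, adjusted p = 0.0567), Tnnt2 (-0.59, 0.0928), Myh6 (0.396, 0.279) and Ldb3 (0.304, 0.448) did not pass on this scale either. The scaling was applied to all 14799 genes, and edgeR draws the spread of a gene partly from the others. A gene that did not pass here can still be separated within the list. In the HO + Vehicle and HO + β-SITO groups, Ttn held 1.67% ± 0.0655 and 2.64% ± 0.0699 of the summed counts. Tnnt2 held 11.6% ± 0.805 and 7.71% ± 0.787 (SD, n = 3). The groups did not overlap in these shares, nor in that of Ldb3. This held for most of the 36 genes on this scale, so it is not particular to those named. Among others it held for Myl3, Mybpc3, Actc1 and Actn2, with lower shares, and for Tpm1 and Tmod1, with higher ones. In Myl2, Tnni3, Lmod2 and Myom1, among others, the groups overlapped. As a share of the summed counts, Myl7 was 0.235% ± 0.0334 and 1.11% ± 0.0278 (SD, n = 3) and Nebl was 1.11% ± 0.0630 and 0.462% ± 0.0363. Myh6 held 19.6%, 16.9% and 18.7% of the summed counts in V1, V2 and V3 and 24.1%, 24.4% and 24.0% in T4, T5 and T6. The groups did not overlap in this share, and T4 lay close to T5 and T6, but as given above the edgeR test on this scale was not passed.

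Other genes of the sarcomere were higher and lower without the fold threshold at shares near those of all genes tested. Of 33 further sarcomere genes, 28 were tested, and 5 were called higher and none lower, against 12.8% and 10.1% of all genes tested. Without the fold threshold 9 were higher and 8 lower (background 33.0% and 33.8%), and the median log2 fold change was 0.03. The same backgrounds apply to the counts of the lists that follow. The largest rises with at least 50 counts on average were Pdlim3, an α-actinin-binding LIM protein (log2 3.04), Mybphl, a myosin-binding protein of the atria (2.60), Fhl1, a LIM protein of muscle (2.44), and Tpm2, the β-tropomyosin (1.79). Fhl2 was the fifth gene called. Pdlim3, Fhl1 and Tpm2 are also genes of smooth muscle, and 7 of 11 smooth muscle and mural markers were called higher, among them Lmod1 (3.72), Cnn1 (2.77), Kcnj8 (1.99) and Notch3 (1.59), while the most abundant, Acta2 (0.99) and Pdgfrb (0.62), stayed below 2-fold. T4 was not low in Pdlim3 (140, 139 and 132 CPM in T4, T5 and T6, against 16.0 to 17.4 in the HO + Vehicle libraries), unlike Mybphl (6.68, 10.7 and 11.3 CPM, against 1.30 to 1.96).

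Among 13 regulators of sarcomere genes, Mef2c, a MADS-box factor of heart and endothelium, was the 1 called (24.5 to 27.2 CPM in the HO + Vehicle libraries, 66.6 to 71.8 in the HO + β-SITO libraries, log2 1.41). Another 8 were higher below 2-fold, including Srf (log2 0.29), Mrtfa (0.56) and Myocd (0.36), the partners that act at CArG boxes, and none was lower (median 0.36). Mef2c stood at 66.6 CPM in T4, close to 68.3 and 71.8 in T5 and T6.

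Of 20 cardiomyocyte markers outside the sarcomere, 4 were called higher and none lower, 10 were higher and 3 lower without the fold threshold, and the median was 0.37. Sln, the atrial regulator of the calcium pump, had 1.14, 1.82 and 1.49 CPM in V1, V2 and V3 and 8.12, 15.0 and 14.6 in T4, T5 and T6 (log2 3.08). The natriuretic peptides Nppa (log2 1.497) and Nppb (2.10) and the calcium-binding Hrc (1.16) were also called, while Atp2a2, the calcium pump (0.42), and Mb, myoglobin (0.66), passed below 2-fold. Sln and Nppa are, with Myl4 and Myl7, genes of the atrium, but no list of atrial genes was set, and atrial genes as a group were not tested. Of the 5 skeletal muscle markers tested, Actn3 (0.124 to 0.439 CPM in the HO + Vehicle libraries, 3.49 to 4.50 in the HO + β-SITO libraries), Tnnt3 and Tnni2 were called higher and Mybpc2 (2.88 to 4.99 and 0.822 to 1.41 CPM) lower, and Pvalb did not pass (log2 -0.18).

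Markers of other cells changed beside these genes. Of 12 fibroblast markers 1 was called higher (Dpt, log2 1.84) and 9 were higher and 2 lower without the fold threshold. Endothelial markers were called higher in 10 of 11 (Vwf 4.09, Emcn 2.51, Esam 2.43, Kdr 2.40) and lower for Flt1 (-2.36). Macrophage markers were called higher in 7 of 12 (Mrc1 4.79, C1qa 1.70, Cd68 1.60) and lower in 2, Fcgr1 (-2.18) among them. Of 6 epicardial and mesothelial markers Upk1b (1.39) and Wt1 (1.03) were called higher. Their part in the changes of the 36 genes was not tested.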

How the data were processed

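RNA was sequenced from 6 libraries of hypoxic NMCMs, 3 per group, with groups taken from the sample labels. The authors deposited 1 table of raw counts per gene for all 6 libraries, without normalization, and every count column was mapped to a sample (0 left out). The submitters' processing notes name FastQC, HISAT2, featureCounts and GRCm39. Handling of strand and of reads with several hits is not given in the sources used here. The kit is named differently in the paper (ABclonal) and the labels (Illumina).

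From these counts, edgeR 4.0.16 (R 4.3.3) was run with filterByExpr, TMM and the quasi-likelihood test with Benjamini-Hochberg adjustment over all 14799 genes tested, with group as the only term. Standard errors are from log2(CPM + 0.5). Lengths were those of the longest coding transcript in GENCODE vM21, and exact permutation tests used scipy 1.17.1. The fit was tested on simulated counts. Alternatives were DESeq2 1.42.0 (the study's tool), limma 3.58.1 voom, glmTreat, other scalings and filters, removal of mitochondrially encoded genes and of each library, and, added after the data were seen, a scaling to the 36 genes and exon-union lengths. The 36 genes and all lists were chosen with earlier results of these data known. All 36 are described. Of the other lists, the text names up to 4 called genes with the largest change and a mean of at least 50 counts. For the cardiomyocyte, skeletal muscle, smooth muscle and fibroblast markers it also names up to 3 with the highest level. Not all of the highest-level genes of the endothelial, macrophage and epicardial lists are named. Fhl2, Srf, Mrtfa, Myocd, Tnnt3, Tnni2, Myh1 and Myh2 were named after their values were seen. At 16694734 to 18460522 counts per library, genes such as Acta1 and Myom3 rested on few counts, and precision there is limited by counting.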

Additional observations from a re-analysis of the deposited data

How the results depend on the processing

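With every alternative test, scaling, filter and left-out library, Myl7, Myl4, Myh7 and Tnnt1 stayed called and higher. DESeq2, limma-voom, RLE factors, both other filters and the removal of mitochondrially encoded genes gave the same 6 calls among the 36 genes, and glmTreat gave 4. Below 2-fold, Des and Ldb3 did not pass with DESeq2, and limma-voom also passed Myom2 and Ankrd1. No paired analysis was possible because replicate numbers 1 to 3 and 4 to 6 are not shared between the groups. With 3 libraries per group and T4 apart, smaller differences such as those of Myl2, Tnni3 and Tpm1 passed without T4 and not with all 6 libraries, and few counts limit Acta1, Myom3 and Xirp2. Causes of the changes listed next were not tested, apart from what each setting does by construction.

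Without the fold threshold 13 of the 36 genes passed, with 2 in the thin filament, 2 in titin and M-band and 5 at the Z-disc, and 17 other sarcomere genes, 9 regulators, 13 cardiomyocyte markers, 11 smooth muscle, 11 fibroblast and 6 epicardial markers and 9892 of all genes did. With glmTreat the counts were 0 for titin and M-band, 0 for the Z-disc and 1 for epicardial markers. With library size only, the Z-disc count was 0 and the fibroblast count 5, and with the upper quartile they were 0 and 4. With no filter on low counts, 7 skeletal muscle markers were called. With each library left out, the counts were 1 to 2 for the thin filament, 1 to 2 for titin and M-band, 0 to 1 for the Z-disc, 1 to 2 for fibroblast and 1 to 2 for epicardial markers. The difference in the Myl4 share was 8.97 to 10.4 points with each library left out (9.85 with all) and 4.86 with exon-union lengths. That of Myl7 (14.8) was 10.8 without length scaling and 24.5 with exon-union lengths, and that of Tnnt1 (2.19) was 1.94 and 6.31.

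Genes that had not passed changed sign around 0. With library size only, log2 fold changes were 0.125 (Myl3), 0.0320 (Tnni1), 0.0963 (Actn2), 0.0735 (Synpo2l), 0.0765 (Xirp1), 0.147 (Smpx) and 0.0945 (Cryab), and with the upper quartile 0.120, 0.0273, 0.0916, 0.0687, 0.0719, 0.142 and 0.0895, while the median of all genes shifted by 0.15 and 0.14. Smpx was at 0.0038 with DESeq2, 0.0025 with RLE factors, 0.0019 with no filter, 0.0012 with at least 10 counts in 3 libraries and 0.0028 without mitochondrially encoded genes. Actc1 was at -0.0386 with limma-voom. Scaled to the 36 genes, Actc1 was at -0.14, Lmod2 at -0.0287, Myom1 at -0.00024, Mypn at -0.0697 and Nexn at -0.0518. With each library left out, the ranges were -0.14 to 0.22 (Myl3), -0.31 to 0.0702 (Tnni1), -0.33 to 0.0342 (Tnnc1), -0.13 to 0.23 (Actc1), -0.00685 to 0.32 (Myom1), -0.16 to 0.17 (Actn2), -0.34 to 0.13 (Csrp3), -0.0302 to 0.23 (Mypn), -0.16 to 0.12 (Synpo2l), -0.18 to 0.14 (Xirp1), -0.0683 to 0.63 (Xirp2), -0.11 to 0.22 (Smpx) and -0.10 to 0.0405 (Cryab). Without T6, Acta1 was called lower (log2 -1.64, edgeR adjusted p = 0.0159).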
